A study of Homo sapiens with 2 samples.

Results

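The genes described here build and control the mitotic spindle and the kinetochore, the protein assembly that ties each chromosome to spindle microtubules. They are 44 genes chosen by name from the biology of mitosis, out of 19775 genes to which the array's annotation ties at least 1 probe set. The choice was made with earlier results of these data known, so the counts below do not come from an independent set. A probe set is a group of short probes for 1 transcript. All 44 were measured, by 84 probe sets that carry the symbol of that gene alone. The cells were K562, an established human erythroleukemia line grown in suspension, which lacks working p53. One culture received 3 µg of a miR-34a mimic by nucleofection, in which an electrical pulse carries nucleic acids into cells, and the other received 3 µg of a control mimic without homology to human genes. Total RNA was taken 24 hours later and hybridised to Affymetrix expression arrays. Each group was 1 culture on 1 array, so every ratio below is a single measurement, no test between the groups was possible, and precision is limited by the number of arrays. How much mimic entered the cells was not measured by these arrays.

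In mitosis the kinase CDK1, bound to B-type cyclins, drives entry, spindle microtubules are captured by the NDC80 complex at kinetochores, and the spindle checkpoint holds back CDC20 until every chromosome is attached. The transcripts of many of these genes are made late in the cell cycle, in G2 and M phase, and are abundant in dividing leukemia lines such as K562. A microRNA lowers messenger RNAs that pair with its seed, and miR-34a, which p53 induces, is known for targets that act earlier, at the passage from G1 into S phase. The mature strand of the transfected microRNA is printed from RefSeq at chr1:9151735-9151756 (GRCh38.p14, minus strand), with the seed, bases 2 to 8, in capitals, because the comparison is defined by this sequence.

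hsa-miR-34a-5p: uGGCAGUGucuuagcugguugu

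The spindle and kinetochore transcripts were slightly lower with miR-34a, most of them by little. Of the 44 genes, 38 had a log2 ratio of miR-34a over control below 0 and 6 above it, and the median was -0.16. Ratios were centred on the median of 12774 expressed genes, so 50.0% of all expressed genes lay below 0 and their median was 0. A total of 3 transcripts were at least 1.5-fold lower with miR-34a, against 3.01% of all expressed genes: SPC25 at -0.78, HMMR at -0.73 and FOXM1 at -0.71. None was at least 1.5-fold higher, against 3.28% of all expressed genes. At 2-fold, 0 members were lower and 0 higher, against 0.548% and 0.595% of all expressed genes. At 1.2-fold, a size chosen after the values were seen, 12 members were lower, against 15.4% of expressed genes, and 2 were higher, against 16.4%. Cells at every stage were lysed together, so fewer cells in G2 and M phase and less messenger RNA per cell cannot be told apart.

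The error available for these ratios is the disagreement between probe sets of 1 gene. Among the 5494 genes that had a second expressed probe set, the brightest and the next were compared. Their differences gave a pooled SD of 0.22 on the log2 scale for a single probe set. It was 0.18 over the 3648 genes for which both were above background on both arrays. This spread leaves out differences between cultures. It was exceeded by 18 of the 44 members, 16 on the lower side and 2 on the higher side, where 19.2% and 19.9% of all expressed genes lay. The other 26 members lay within it. Of the 84 probe sets, 69 passed the filter on dim signals, and of these 55 were lower and 14 higher, where 51.0% of all expressed probe sets with 1 symbol were lower. Of the 63 above background on both arrays 54 were lower, where the share over all such probe sets was 52.8%. Signals up to 75.4, the highest value on 27 probe sets for bacterial transcripts, count as background, and the brightest probe set of each of the 44 members was above it on both arrays. Most members had bright probe sets, 28 of them among the brightest 25% of expressed genes. In that class 24 of the 28 members were below 0, with a median of -0.16, where 56.0% of all genes in it were below 0, with a median of -0.026.

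**Figure D1:**
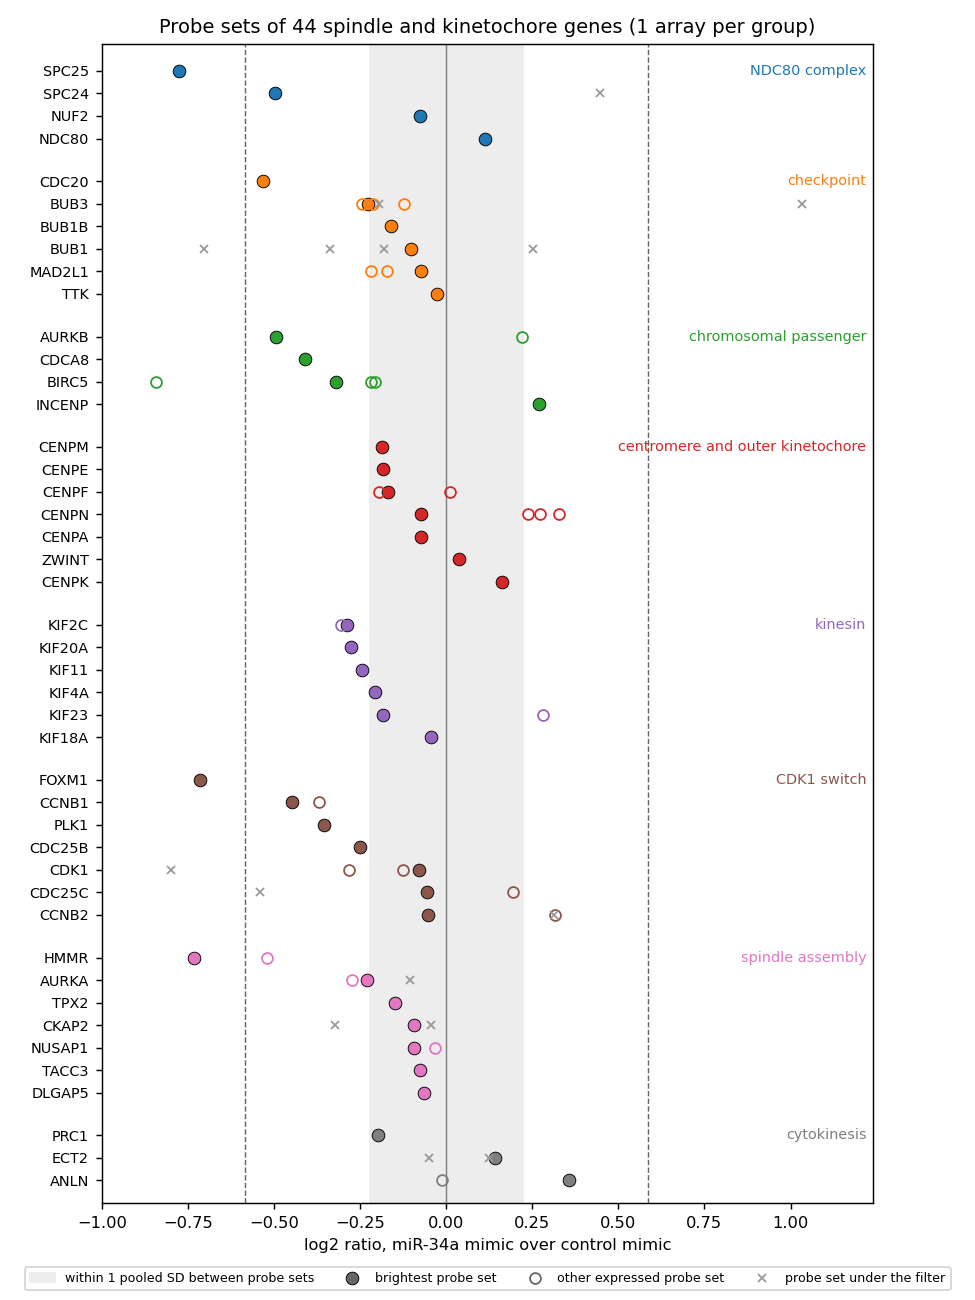
Log2 ratio of miR-34a mimic over control mimic (x axis) for each probe set of the 44 genes (rows, by role). Filled circles are the brightest probe set, open circles other expressed ones and crosses those under the filter; the grey band is 1 pooled SD between probe sets (0.22) and the dashed lines mark 1.5-fold. The filled circles of SPC25, HMMR and FOXM1 lie left of the lower dashed line, and no filled circle lies right of the upper one. An open circle of BIRC5 (-0.84) and crosses of BUB1 and CDK1 also lie left of the lower line.

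Quality measures moved between the arrays as well. The ratio of 3′ to 5′ signal, which grows as RNA breaks down, was 3.53 for GAPDH with miR-34a and 3.07 with the control mimic, and 4.54 and 4.30 for ACTB. The log2 ratio averaged 0.0055 ± 0.068 over the 18 probe sets for spiked-in RNA (SD). The K562 identity was checked on 7 markers of the line, GATA1, KLF1, TFRC, EPOR, ABL1 and the embryonic globins HBE1 and HBZ, all above background on both arrays, with summed signals of 29784 for miR-34a and 25380 for control. They did not move alike. HBZ read 7672.3 with miR-34a and 4258.0 with control, a log2 ratio of 0.84 that is larger in size than that of any member on its brightest probe set, and EPOR had 0.50. ABL1 and TFRC had -0.35 and -0.12. Of 7 lymphoid markers CD22 alone was above background, and the sums were 590.0 with miR-34a and 584.6 with control. Of 8 myeloid markers LYZ, S100A9 and CSF1R were above background on at least 1 array, with sums of 809.4 and 776.9. The part of RNA integrity or of these markers in the ratios was not tested.

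Genes of G2 and M phase are known to share 2 promoter elements. The CHR (cell cycle genes homology region) is bound by the MuvB core, which works with DREAM as a repressor and with MYBL2 and FOXM1 as an activator. The CCAAT box is bound by NF-Y. Promoter windows of 250 bases before to 50 after the annotated start were taken from RefSeq (GRCh38.p14), which gave 47 windows for 37 of the 44 members. The motifs were searched on both strands as TTTGAA or TTCGAA for the CHR and CCAAT for the CCAAT box. Other spellings of these 2 elements were not searched. A CHR match was present in 32 of the 47 member windows (68.1%), where 16.4% of all 35116 windows had one. CCAAT was present in 34 member windows (72.3%) and in 34.6% of all windows, and both together in 27 (57.4%) and in 6.38%. A CHR match that began between 40 bases before and 10 bases after the start, a placing chosen after the matches were seen, was in 22 of the 47 member windows (46.8%) and in 2.92% of all windows. An E2F-type site, searched as TTTCGCGC, TTTGGCGC or TTCCCGCC, was in 7 member windows (14.9%) and in 4.24% of all windows. Against the windows of expressed genes alone, the shares were 12.8% for the CHR, 35.1% for CCAAT, 5.18% for both and 6.10% for the E2F-type site. By gene, 6 of the 37 members (16.2%) held an E2F-type site, and 8.18% of expressed genes did. The stretches below run from 130 bases before to 50 bases after the start, with CHR and CCAAT matches of either strand in capitals, and they show SPC25, HMMR, NDC80 and ANLN from the lower and the higher side of the log2 ratios, both B-type cyclins and PLK1. These genes were chosen after their values were seen. They are SPC25 at chr2:168890381-168890560 (minus strand), HMMR at chr5:163460502-163460681 (plus strand), PLK1 at chr16:23678759-23678938 (plus strand), CCNB2 at chr15:59105016-59105195 (plus strand), CCNB1 at chr5:69167020-69167199 (plus strand), NDC80 at chr18:2571427-2571606 (plus strand) and ANLN at chr7:36389732-36389911 (plus strand).

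SPC25: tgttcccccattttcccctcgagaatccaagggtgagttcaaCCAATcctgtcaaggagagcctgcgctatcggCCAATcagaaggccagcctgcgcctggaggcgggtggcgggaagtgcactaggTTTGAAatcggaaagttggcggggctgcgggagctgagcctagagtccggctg

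HMMR: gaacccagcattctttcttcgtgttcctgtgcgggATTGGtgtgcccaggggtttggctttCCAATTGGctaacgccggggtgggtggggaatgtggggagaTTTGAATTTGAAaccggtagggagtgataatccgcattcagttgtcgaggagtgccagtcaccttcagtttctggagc

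PLK1: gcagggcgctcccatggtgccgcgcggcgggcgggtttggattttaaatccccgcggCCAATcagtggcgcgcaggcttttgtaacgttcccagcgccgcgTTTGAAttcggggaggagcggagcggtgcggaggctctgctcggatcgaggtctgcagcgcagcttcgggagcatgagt

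CCNB2: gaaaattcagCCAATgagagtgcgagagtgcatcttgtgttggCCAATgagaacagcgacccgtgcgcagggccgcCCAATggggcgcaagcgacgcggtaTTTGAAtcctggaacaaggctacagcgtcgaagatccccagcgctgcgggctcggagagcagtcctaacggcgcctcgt

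CCNB1: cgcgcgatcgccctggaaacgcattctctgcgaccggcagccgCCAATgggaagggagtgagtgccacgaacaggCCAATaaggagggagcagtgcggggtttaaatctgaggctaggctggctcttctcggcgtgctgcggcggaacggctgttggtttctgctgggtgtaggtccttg

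NDC80: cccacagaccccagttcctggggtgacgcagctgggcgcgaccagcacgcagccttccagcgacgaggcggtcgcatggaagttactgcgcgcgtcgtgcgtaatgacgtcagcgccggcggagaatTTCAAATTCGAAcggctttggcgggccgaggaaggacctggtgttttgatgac

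ANLN: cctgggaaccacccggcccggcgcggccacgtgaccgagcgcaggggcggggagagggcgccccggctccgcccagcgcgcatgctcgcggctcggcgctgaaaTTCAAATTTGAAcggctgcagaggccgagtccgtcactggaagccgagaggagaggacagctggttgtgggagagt

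In the SPC25 stretch a single CHR lies next to the start, behind a pair of CCAAT boxes. HMMR has a pair of CHR matches in tandem, and its CCAATTGG run holds overlapping CCAAT matches of opposite strands. PLK1 and CCNB2 have a CHR 29 bases before the start with CCAAT upstream. CCNB1 has CCAAT boxes at 87 and 55 bases before the start and no match to the CHR letters in its window. NDC80 and ANLN have adjoining CHR matches and no CCAAT match in the 300 bases, as had BUB1B and NUF2, at -0.16 and -0.07, with 1 CHR match each. CENPE, KIF2C, TACC3 and CKAP2 had neither match and were also below 0, at -0.18, -0.29, -0.077 and -0.095. Besides NDC80 and ANLN, the members above 0 in log2 ratio were INCENP, CENPK, ECT2 and ZWINT. All 4 held CCAAT, with 3, 3, 3 and 2 matches in the window that had most.

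Log2 ratios were set beside these matches as a description, with no test. The 28 member genes with a CHR match in at least 1 window had a median of -0.086 and 23 of them were below 0. The 9 members in the promoter table without one had a median of -0.28 and 8 were below 0. SPC25 and HMMR, the members in that table past 1.5-fold, both hold a CHR match, as do 75.7% of the 37 members in it. They are 7.14% of the members with a match, where 3.37% of all expressed genes with a match were that low. Of the 24 members with CHR and CCAAT in 1 window 87.5% were below 0, with a median of -0.097, and of the 13 without that pair 76.9%, with a median of -0.16. Over all expressed genes in that table, the 1691 with a CHR match had a median of 0.0021, with 49.8% below 0, and the 8582 without had -0.0037, with 50.7% below 0. Among genes other than members, 304 had the CHR match placed near the start, with a median of -0.011 and 53.9% below 0, and the 9932 without it had -0.0014, with 50.3% below 0. For the same placing, the 21 member genes with the match had a median of -0.079 and the 16 without it -0.18.

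**Figure D2:**
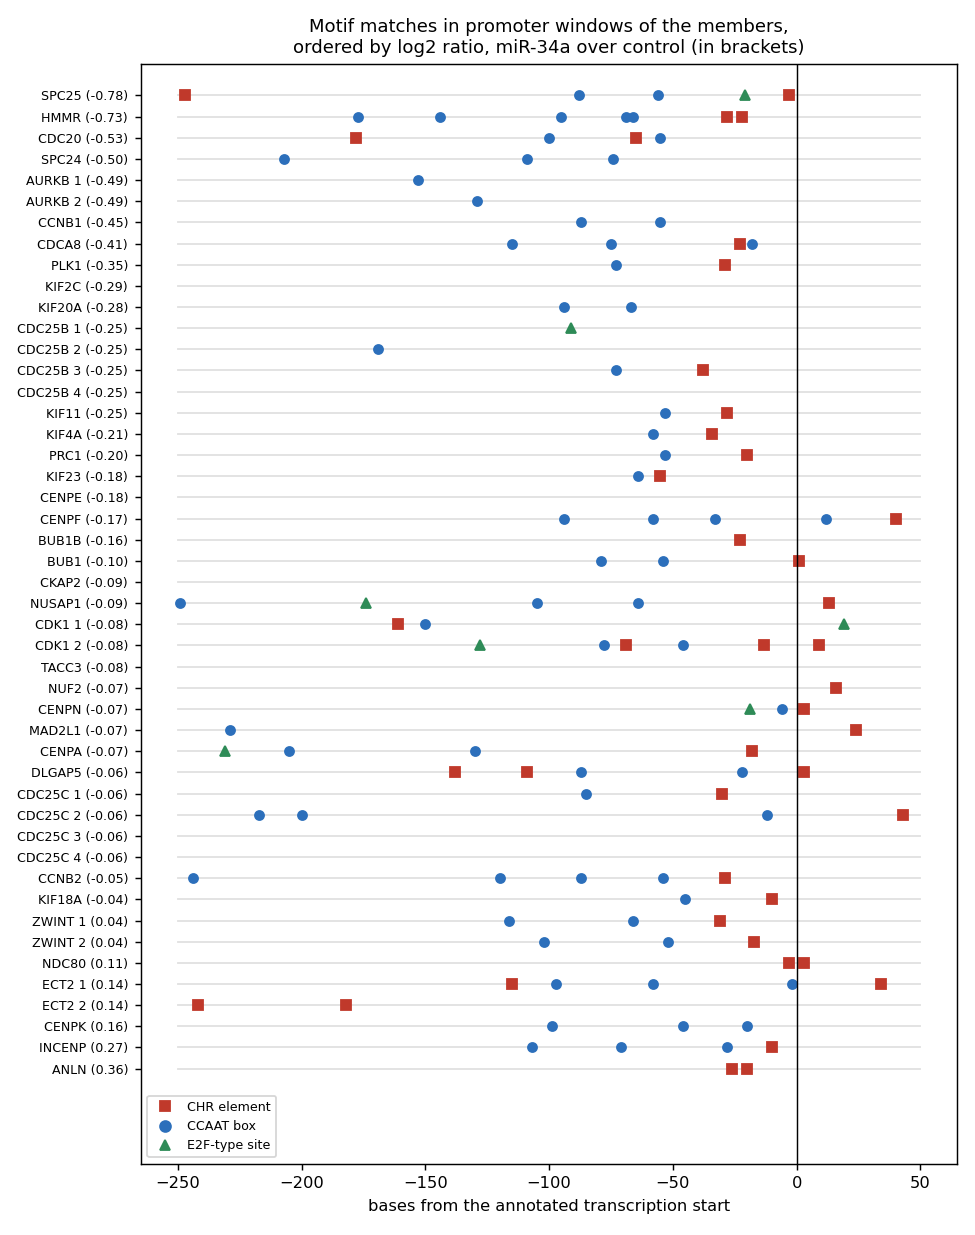
Matches to the CHR (squares), CCAAT box (circles) and E2F-type letters (triangles) in the 47 promoter windows of 37 members, by distance in bases from the annotated start (x axis); a number after a gene name marks 1 of several windows. Rows are ordered by log2 ratio of miR-34a over control, given in brackets, and CHR matches appear both at the top, in SPC25 and HMMR, and at the bottom, in INCENP and ANLN.

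Genes of the CDK1 switch were all 7 below 0, where 50.0% of all expressed genes lay, with a median of -0.25. On the brightest probe sets CDK1, CCNB2 and CDC25C lay within the spread between probe sets. CCNB1, the cyclin that activates CDK1 at mitotic entry, read 1586.9 with miR-34a and 2156.1 with the control mimic, a log2 ratio of -0.45, and its second probe set gave -0.37. CDK1 itself read 2012.1 with miR-34a and 2112.8 with control, a log2 ratio of -0.079. Its other expressed probe sets gave -0.13 and -0.28. The difference between cyclin and kinase on the brightest probe sets was -0.37, or 1.18 times the SD that the spread between probe sets gives for a difference. It was not a planned comparison, and that SD leaves out differences between cultures. CCNB2, the second B-type cyclin, read 1403.7 with miR-34a and 1446.2 with control, at -0.052. Its other expressed probe set, within background on both arrays, gave 0.32. FOXM1, a transcription factor that activates G2 and M phase genes, had the lowest value of this group. It read 189.9 with miR-34a and 319.2 with control, a log2 ratio of -0.71. FOXM1 rests on 1 probe set, of a class (_x_at) whose probes can also pair with other transcripts. PLK1, the polo kinase of mitotic entry and exit, read 387.6 with miR-34a and 496.4 with control, at -0.35 on its 1 probe set. Of the phosphatases that activate CDK1, CDC25B read 346.5 with miR-34a and 412.2 with control, at -0.25. CDC25C read 204.7 with miR-34a and 212.0 with control, at -0.056, and a dim second probe set gave 0.20.

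All 7 genes of spindle assembly were below 0, where 50.0% of all expressed genes lay, with a median of -0.095. Of these, HMMR and AURKA alone lay beyond the spread between probe sets. HMMR, a microtubule-associated protein and hyaluronan receptor, read 989.3 with miR-34a and 1642.2 with control, a log2 ratio of -0.73. Its second probe set read 232.8 with miR-34a and 338.0 with control, at -0.52, and HMMR was the only one of the 3 members past 1.5-fold with a second expressed probe set. AURKA, the kinase of centrosomes and spindle poles, gave -0.23 and -0.27 on its expressed probe sets, with 1295.2 for miR-34a and 1512.7 for control on the brighter. TPX2, which activates AURKA on the spindle, had -0.15. NUSAP1, a microtubule-bundling protein, had -0.093 and -0.034, CKAP2 -0.095, TACC3 -0.077 and DLGAP5 -0.063. The last 3 bind the spindle or its poles, and their values lay within the spread between probe sets.

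The 6 kinesins, motor proteins that move along microtubules, were all below 0 within a narrow range, from -0.29 to -0.044, with a median of -0.23. KIF2C, which takes apart microtubules at kinetochores, read 1175.1 with miR-34a and 1428.3 with control. Its probe sets gave -0.29 and -0.31. KIF20A, needed for cytokinesis, had -0.28, KIF11, which pushes spindle poles apart, -0.25, and KIF4A, of chromosome arms and the midzone, -0.21. KIF23, part of the centralspindlin complex of the midzone, had -0.18, while its second probe set read 106.6 with miR-34a and 84.4 with control, at 0.28, so its direction is not settled. KIF18A, which limits chromosome movement at the metaphase plate, had -0.044.

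Of the 4 subunits of the NDC80 complex 3 were below 0, where 50.0% of all expressed genes lay, with a median of -0.29. SPC24 and SPC25 pair up on the side that faces the chromosome, and NDC80 and NUF2 on the side that holds the microtubule. SPC25 read 679.9 with miR-34a and 1168.0 with control, a log2 ratio of -0.78, the lowest of the 44 members. SPC24 read 240.5 with miR-34a and 343.2 with control, at -0.50. NUF2 read 396.5 with miR-34a and 415.7 with control, at -0.075, and NDC80 read 649.5 with miR-34a and 595.9 with control, at 0.11. The gap of -0.89 between SPC25 and NDC80 was 2.84 times the SD that the spread between probe sets gives for such a difference, and the gap of -0.42 between SPC24 and NUF2 was 1.34 times it. Between SPC25 and SPC24 the gap was -0.28, or 0.89 times it, and no test compares the pairs. These gaps were not among the planned comparisons, SPC25 is the lowest of the 44 members, and the SD leaves out differences between cultures. Each of these values rests on 1 expressed probe set, and a second probe set of SPC24 read 11.4 with miR-34a and 4.3 with control, both within background.

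Genes of the centromere and outer kinetochore had the median closest to 0 of the 8 groups. Of the 7 members, 5 were below 0, where 50.0% of all expressed genes lay, and the median was -0.074 with a range from -0.19 to 0.16. CENPM, CENPE and CENPF, which are a constitutive centromere protein, a kinetochore motor and an outer kinetochore protein, had -0.19, -0.18 and -0.17. CENPA, the histone variant that marks centromeres, read 169.6 with miR-34a and 178.0 with control, at -0.073. A probe set that the annotation shares between CENPA and 1 other gene read 502.4 with miR-34a and 557.5 with control, at -0.15. CENPK, of the constitutive centromere network, had 0.16, and ZWINT, which links the outer kinetochore to the checkpoint, 0.036. CENPN, which binds CENPA nucleosomes, had -0.074 on the brightest probe set, with 846.5 for miR-34a and 886.3 for control. The other 3 expressed probe sets gave 0.33, 0.27 and 0.24, the last from signals within background on both arrays. The direction of CENPN therefore depends on the probe set chosen.

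All 6 checkpoint genes were below 0, where 50.0% of all expressed genes lay, with a median of -0.13. On the brightest probe sets BUB1B, BUB1, MAD2L1 and TTK lay within the spread between probe sets. CDC20, the activator of the anaphase-promoting complex that the checkpoint restrains, had the lowest value. It read 1282.4 with miR-34a and 1848.6 with control, a log2 ratio of -0.53 on its 1 probe set. BUB3, which brings checkpoint kinases to kinetochores, had 4 expressed probe sets that all lay between -0.24 and -0.12, with 1459.0 for miR-34a and 1699.5 for control on the brightest. BUB1B, the pseudokinase BubR1, had -0.16, and BUB1, the kinase that recruits it, -0.10. MAD2L1, which binds and blocks CDC20, had -0.074 on its brightest probe set and -0.17 and -0.22 on the others. TTK, the kinase that starts checkpoint signalling, read 472.4 with miR-34a and 478.8 with control, at -0.028.

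The chromosomal passenger complex had the lowest median of the groups on the brightest probe sets, -0.36, and its scaffold subunit went the other way. Under other ways of processing, the median of this group lay between -0.49 and -0.26. That of the NDC80 complex lay between -0.30 and -0.25, so the rank is not settled. AURKB, the kinase of the complex, read 322.1 with miR-34a and 456.6 with control, a log2 ratio of -0.49. A dimmer AURKB probe set read 79.4 with miR-34a and 65.5 with control, the control value within background, at 0.22. CDCA8 (borealin), which targets the complex to centromeres, read 516.3 with miR-34a and 685.7 with control, at -0.41. BIRC5 (survivin), which reads the histone mark at centromeres, was lower on all 4 probe sets but by unequal amounts. The brightest read 1180.8 with miR-34a and 1469.1 with control, at -0.32, and another read 246.3 with miR-34a and 450.6 with control, at -0.84, while the remaining ones gave -0.22 and -0.21. INCENP, the scaffold that activates AURKB, read 114.8 with miR-34a and 92.0 with control, at 0.27, on 1 dim probe set.

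**Figure D3:**
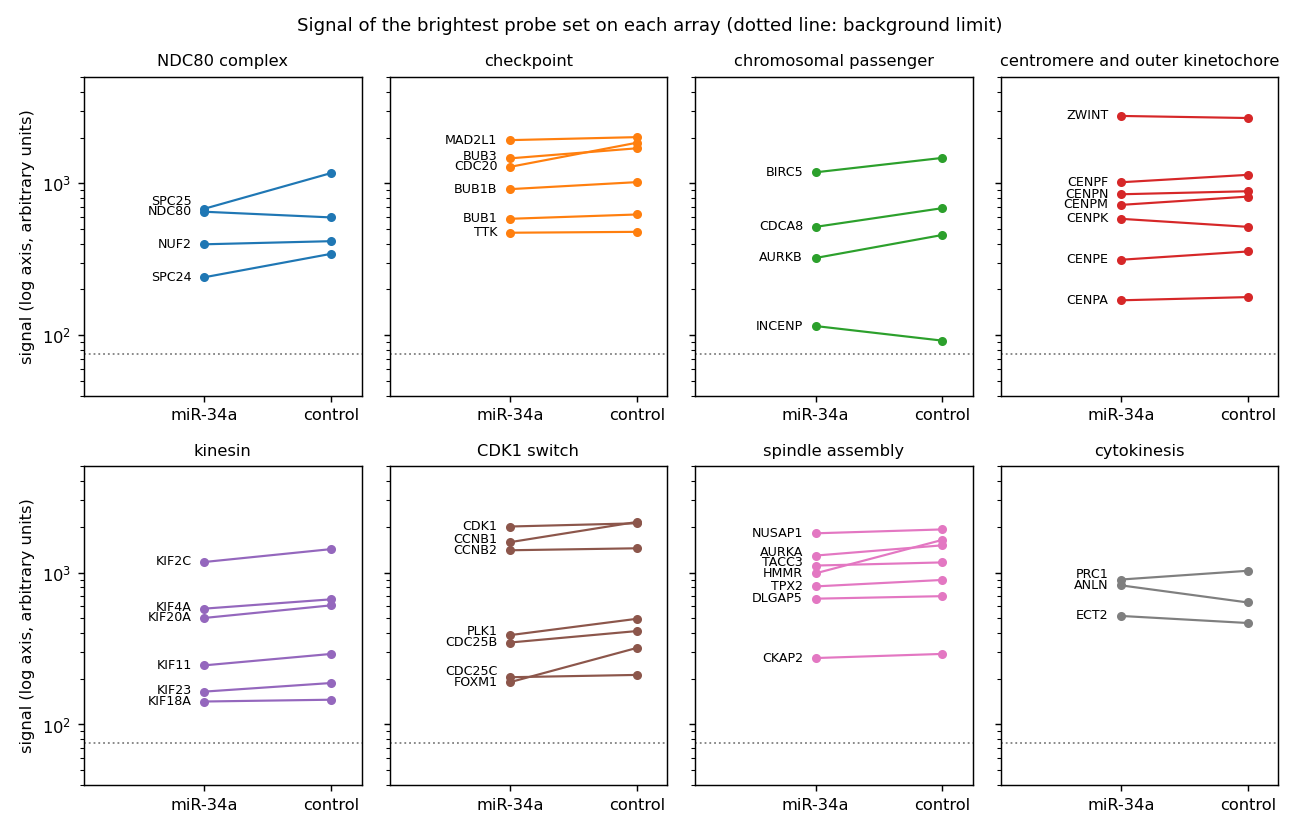
Signal of the brightest probe set (y axis, log scale, arbitrary units) with the miR-34a mimic (left point) and the control mimic (right point) for each member, 1 panel per role group, 1 array per group. SPC25 reads 679.9 with miR-34a and 1168.0 with control, while the line of NDC80 has the opposite slope; the dotted line is the background limit of 75.4.

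Of the 3 cytokinesis genes, those of the contractile ring and its activation were above 0 and the midzone gene was below. ANLN (anillin), which organises the contractile ring, read 824.2 with miR-34a and 636.0 with control, a log2 ratio of 0.36, the highest of the 44. Its second probe set read 96.4 with miR-34a and 96.7 with control, at -0.012. ECT2, the exchange factor that switches on RhoA at the division site, read 518.4 with miR-34a and 465.8 with control, at 0.14. PRC1, which bundles midzone microtubules, read 900.8 with miR-34a and 1028.4 with control, at -0.20. ANLN and INCENP were the 2 members above the spread between probe sets on the higher side.

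How well the direction holds within a gene could be seen for the 16 members with 2 or more expressed probe sets. All expressed probe sets had the same sign in 9 of them, AURKA, BIRC5, BUB3, CCNB1, CDK1, HMMR, KIF2C, MAD2L1 and NUSAP1. The sign differed in ANLN, AURKB, CCNB2, CDC25C, CENPF, CENPN and KIF23. Restricted to probe sets above background on both arrays, 13 members had 2 or more, and in 10 of them the sign was the same. The other 28 members rest on 1 expressed probe set each. CKAP2 has a further 6 probe sets that the annotation shares with other genes, and those above the filter gave -0.32 and 0.21. The first of these was within background with miR-34a, and the second was within it on both arrays.

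Mitosis genes outside the 44 were compared as 5 lists. Of 104 genes listed, 100 were expressed and 4 were not analysed here. With each gene taken once, 68 of the 100 were below 0 and the median was -0.090, where the 44 members had 38 below 0 and a median of -0.16. At least 1.5-fold lower were 6 of the 100, against 3.01% of all expressed genes, and 0 were 1.5-fold higher. By centring, 50.0% of all expressed genes lay below 0. No test compares these counts, and lists and members alike were chosen with earlier results of these data known.

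The mitotic entry list, which holds kinases, G2 cyclins and MuvB subunits, had 12 of 17 genes below 0 and a median of -0.18. MYBL2, a transcription factor that works with MuvB, had -0.74, with 708.6 for miR-34a and 1189.9 for control, and the mitotic kinase PBK had -0.59. WEE1, the kinase that inhibits CDK1, read 1433.7 with miR-34a and 1056.5 with control, at 0.43, and LIN37, a subunit of DREAM, had 0.30 from a control signal within background. In the list of other spindle and midbody genes 14 of 20 were below 0, with a median of -0.080. CEP55, which organises the last cut between daughter cells, read 172.7 with miR-34a and 328.9 with control, at -0.88 on 1 probe set, and RAE1, an mRNA export factor that also acts on the spindle, had -0.59 and -0.50. KIFBP, which binds and inhibits kinesins, had 0.39, and CLASP1, which stabilises microtubule ends, 0.17.

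In the anaphase-promoting complex list 14 of 19 were below 0, with a median of -0.098. CDC23, a subunit of the complex, read 310.6 with miR-34a and 540.5 with control, at -0.78, but its second probe set gave -0.0022. FBXO5, an inhibitor of the complex, had -0.38, and the subunits CDC27 and CDC16 had 0.30 and 0.12. Of 20 condensin, cohesin and chromosome genes 13 were below 0, with a median of -0.10. NCAPH, of condensin, and CDCA5, which protects cohesin, had -0.68 and -0.58, while SMC4 and PDS5B had 0.20 and 0.17, with another SMC4 probe set at -0.23. Of 27 other kinetochore and centromere genes 17 were below 0, with a median of -0.040. SPDL1, which recruits dynein to kinetochores, and SKA3, of the complex that tracks microtubule ends, had -0.43 and -0.42, and the centromere proteins CENPI and CENPQ had 0.41 and 0.29. The 14 genes of the replicative helicase, which act in S phase, had 11 below 0, a median of -0.25 and 4 at least 1.5-fold lower. GINS3 and MCM3 had -1.26 and -1.20, lower than any of the 44 members, while GINS4 and MCM6 had 0.16 and 0.066, with another GINS4 probe set at -0.26. The difference between these lists and the spindle and kinetochore genes was not tested.

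**Figure D4:**
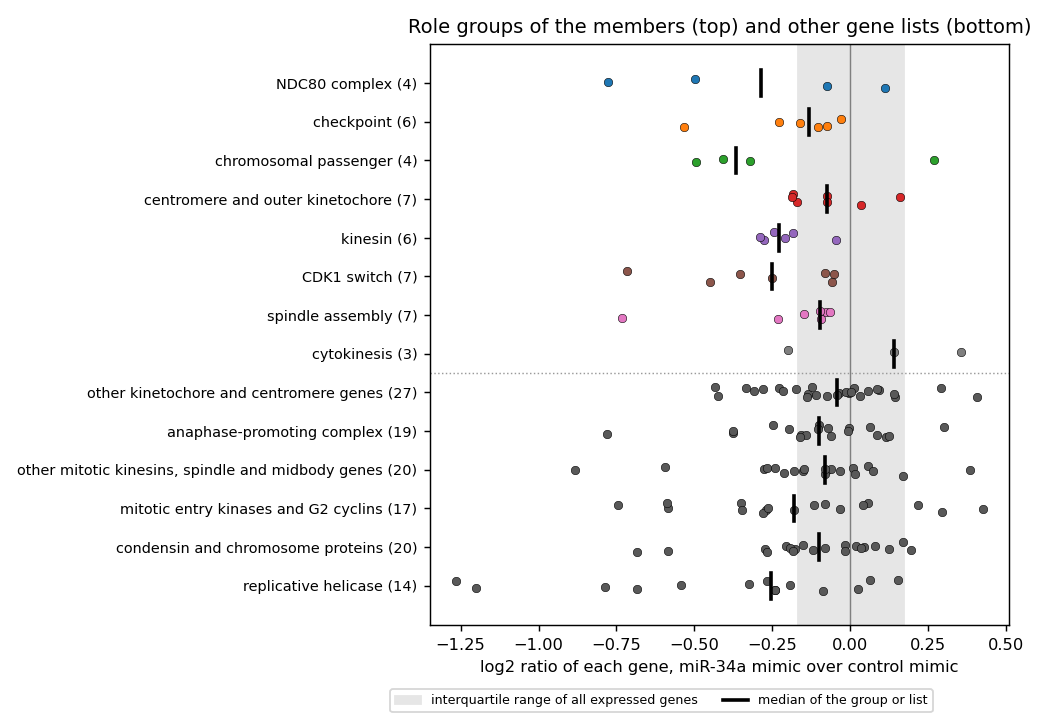
Log2 ratio of miR-34a mimic over control mimic (x axis) for each expressed gene of the 8 role groups of the 44 members (above the dotted line) and of the 6 other lists (below it); black bars are medians, numbers in brackets count expressed genes and the grey band is the interquartile range of all expressed genes. Medians run from -0.36 for the chromosomal passenger group to 0.14 for cytokinesis.

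**Figure D5:**
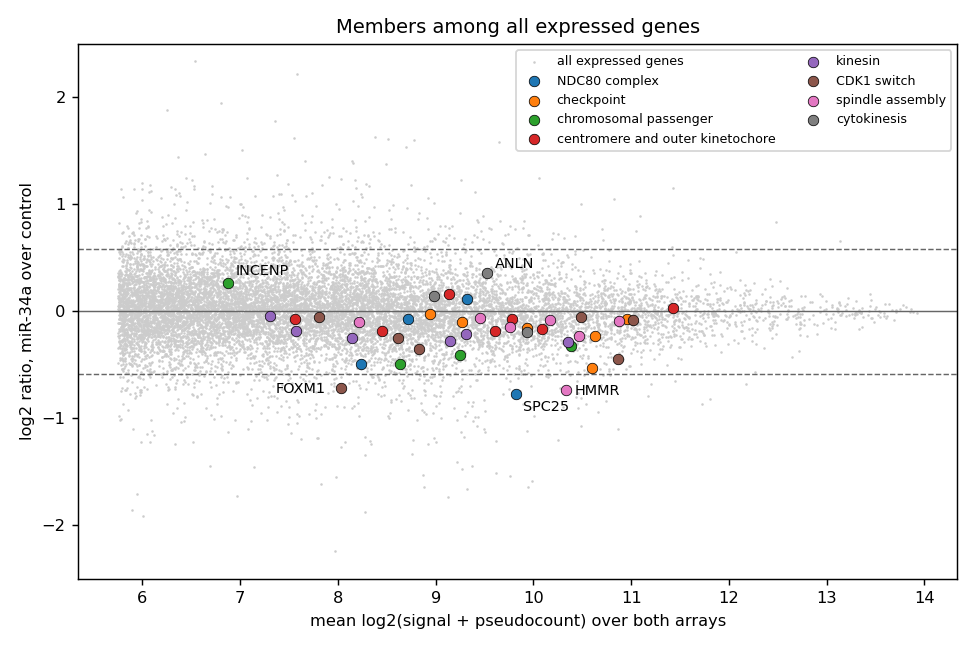
Log2 ratio of miR-34a over control (y axis) against mean log2 level over both arrays (x axis) for all 12774 expressed genes (grey) and the 44 members (coloured by role group); dashed lines mark 1.5-fold. Most members lie just under 0 at middle to high levels, and SPC25, HMMR and FOXM1 lie under the lower dashed line.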

How the data were processed

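The authors deposited 1 table of linear probe set intensity values in arbitrary units for both arrays, with a floor at 1. Which software, background correction and scaling made them is not given in the sources used here. Per the labels' protocols, 15 µg of total RNA was turned into cRNA labelled with biotin. Signals in the text are these deposited values. Ratios were taken on the scale log2(intensity + 14.9), whose pseudocount is the 25th percentile of the table, and this understates changes of dim genes. The log2 ratio is miR-34a less control, minus 0.0090, its median over expressed genes. A probe set was expressed if its mean log2 level was at or above the median of 54613 probe sets other than controls, a signal of about 39.0. A gene took its brightest expressed probe set. Names come from the platform's annotation, in which 41097 probe sets had 1 symbol, 1801 had several and 11777 had none, and 99.9% of the first kind had a gene ID in RefSeq's table (GRCh38.p14). No probe set is given a genome position here.

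With 1 array per group no test was run, and sizes were read at 1.5-fold. All members are named, and of each other list the 2 highest and 2 lowest genes; other names were chosen after their values were seen. NEK2, GTSE1 and KIF22 stand in 2 of the lists. Members and lists were chosen with earlier results of these data known. The calculation was tested on simulated data. Alternatives changed the pseudocount, filter, centring, normalization (quantile or loess, span 0.3), probe sets and fold. Python 3.11.15, NumPy 2.4.6, pandas 2.3.3, statsmodels 0.14.6 and matplotlib 3.10.9 were used.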

Additional observations from a re-analysis of the deposited data

How the results depend on the processing

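Each group has 1 array, which limits every value, and 19 of the 84 member probe sets read within background on both arrays. No paired analysis was possible because each group has 1 array. The median over the members lay between -0.17 and -0.13 under the alternatives. At least 1.5-fold lower were 3 members under each alternative that kept that fold. The share of all genes that low ran from 1.71% with 4 times the pseudocount to 5.04% with no filter on dim probe sets. The filter at the 75th percentile kept 43 of the 44. With other folds the count lower was 0 at 2-fold and 12 at 1.2-fold, and 2 were higher at 1.2-fold, a size added after seeing the data. Leaving out the _s_at, _x_at and _a_at classes, which can pair with several transcripts, left 30 members, 24 of them below 0, with a median of -0.13. FOXM1 was lost and BIRC5 took a probe set at -0.84, which put BIRC5 in the place of FOXM1 among the 3 members past 1.5-fold. In that setting the medians were -0.49 for the chromosomal passenger group, 0.016 for the centromere and outer kinetochore group, -0.11 for other kinetochore genes, -0.0019 for the anaphase-promoting complex, -0.15 for condensin and chromosome proteins and -0.19 for the replicative helicase, because fewer genes and other probe sets entered. Over all alternatives the chromosomal passenger median lay between -0.49 and -0.26 and that of the NDC80 complex between -0.30 and -0.25. Which group had the lowest median therefore depends on the processing. The mitotic entry median was -0.25 with the filter at the 75th percentile, -0.26 as a mean over expressed probe sets and -0.25 with loess and that filter together, an alternative added after seeing the data. As a mean over expressed probe sets 34 members were below 0, and CENPN, KIF23, CCNB2 and CDC25C were above it. Over probe sets above background on both arrays, added later too, 36 were below 0. The pseudocount, centring, quantile and loess alternatives changed the sign of 0 members.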
